A study of Homo sapiens with 24 samples.

Results

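The difference described here is that between 2 effects of the same construct: the effect of MCART1 overexpression on each mRNA in cells given MPP+, minus its effect in untreated cells. It was taken over 12 of the 24 libraries of the series, 3 in each of 4 groups, as (oeMCART1_MPP minus oeNC_MPP) minus (oeMCART1 minus oeNC). Of the 31524 gene identifiers held by both deposited tables, members were the 14811 genes that reached 1 TPM in 3 or more of the 12 libraries. TPM is a transcript abundance per unit of transcript length, scaled so that each library has an equal total. All 12 libraries were labelled SH-SY5Y, a human neuroblastoma line. The oeNC libraries came from control cells without MPP+, the oeMCART1 libraries from MCART1-overexpressing cells without MPP+, and the oeNC_MPP and oeMCART1_MPP libraries from such cells after 24 h in 0.5 mM MPP+. The vector, its promoter, and whether the cells were 1 clone or a pool were not given in the sources used. No label says that replicates were separate cultures, so the p-values measure the spread between these libraries, which may be technical.

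The gene long called MCART1 is now SLC25A51 and encodes the transporter through which NAD+ enters the mitochondrial matrix. There NAD+ is reduced by the enzymes of fuel oxidation, and complex I of the respiratory chain oxidises the NADH again. MPP+ is the toxic metabolite of MPTP. It enters dopaminergic neurons through the dopamine transporter, collects in mitochondria and blocks complex I, and it is a common cellular model of Parkinson's disease. Cells with failing mitochondria are known to switch on the integrated stress response, in which the transcription factor ATF4 raises genes of amino acid supply.

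The labelled cell type was checked first. Among markers of SH-SY5Y cells, PHOX2A and ELAVL4 were listed at 0 in all 6 untreated libraries. Their levels in the treated libraries were not analysed here. TH, which makes the precursor of dopamine, was at 0 in all libraries but 1, at 0.04 TPM. GATA3 was present at 3.85 to 5.66 TPM, HAND2 at 1.39 to 3.12 TPM and ISL1 at 1.68 to 4.80 TPM. The noradrenergic markers PHOX2A and TH were thus at or near 0, and the libraries are called here by their labels. The growth protocol also names HEK293T cells. In bulk RNA, fewer cells of a type and less RNA per cell cannot be told apart. Between 13197 and 14060 genes reached 1 TPM in a library, and replicates of a group correlated at 0.983 to 0.991. TPM keep no sequencing depth, so depth is unknown.

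SLC25A51 itself (ENSG00000122696, GRCh38 chr9:37879400-37904353, minus strand) was strongly raised in both conditions and stood further above its control with MPP+. Its level was 29.52, 35.66 and 29.74 TPM in the 3 oeNC libraries and 697.1, 674.2 and 677.7 TPM in the oeMCART1 libraries. With MPP+ it was 7.87, 8.15 and 9.44 TPM in oeNC_MPP and 1008, 930.9 and 869.9 TPM in oeMCART1_MPP. No control library came near an overexpressing one. The ratio of the means was 21.6 without and 110 with MPP+, and the 2-sided exact permutation p was 0.1 in each table, the smallest that 3 against 3 libraries allow. The difference between the effects was 2.23 ± 0.12 on the log2(TPM + 1) scale (SE, limma adjusted p = 4.39e-06). The control levels entered that value as much as the overexpressed ones. In the shScramble libraries, the controls of the knockdown arm of the same tables, SLC25A51 was at 10.9 TPM without and 7.91 TPM with MPP+, so the untreated oeNC level was the one that stood apart. With shScramble in place of oeNC in both tables the difference was 0.88. TPM of SLC25A51 count the construct and the cell's own gene together. Its near-identical copy SLC25A52 was listed at 0 in 11 of the 12 libraries and at 0.12 TPM in the other.

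Over all genes, 2766 of 14811 (18.7%) had a difference with a Benjamini-Hochberg adjusted p under 0.05 by limma and are termed called. Of these, 1998 (13.5% of the genes tested) were higher, meaning that overexpression raised the gene more, or lowered it less, with MPP+ than without. The other 768 (5.19%) were lower. The split between higher and lower depended on the scaling: with median-of-ratios scaling 1231 were higher (8.31%) and 1169 lower (7.89%), and with quantile normalization 1388 (9.37%) and 1125 (7.60%). Under median-of-ratios scaling the median over all genes became -0.02 in place of 0.15 for the untreated effect, 0.01 in place of 0.26 for the treated effect and -0.01 in place of 0.06 for the difference. Each effect alone was wide, with 8186 genes called (55.3%) without MPP+, 37.8% higher and 17.5% lower, and 8646 (58.4%) with it, 45.5% higher and 12.9% lower. These splits moved too: with median-of-ratios scaling the untreated effect had 4170 genes higher and 4251 lower and the treated effect 3920 and 3934, and with the GC trend removed the untreated effect had 4635 and 464.

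Most called differences came with a called effect in only 1 of the 2 conditions. For 1106 of the 2766 genes (40.0%) overexpression had a called effect with MPP+ only, and 775 of those rose and 331 fell. For 783 (28.3%) it had a called effect in untreated cells only. In 540 genes (19.5%) the effect was called in both conditions with opposite signs, and 468 of these fell on overexpression in untreated cells and rose on overexpression with MPP+. Effects in the same direction were larger with MPP+ in 278 genes and smaller in 42, and 17 genes were called in neither effect. The size of these classes depended on the processing. The class with opposite signs held 278 genes with median-of-ratios scaling, 308 with quantile normalization, 243 with the GC trend removed and 126 with shScramble libraries as the control. With the GC trend removed 1848 genes had a called effect with MPP+ only and 356 in untreated cells only. Other settings reversed the order of these classes. The counts with MPP+ only and in untreated cells only were 814 and 913 with median-of-ratios scaling and 792 and 989 with quantile normalization. They were 1179 and 1500 with library weights and 412 and 494 with shScramble as the control. The 42 with a smaller effect became 364 without oeNC replicate 2 and 10 without oeMCART1_MPP replicate 3. The 278 with a larger effect ranged from 149 without oeMCART1 replicate 1 to 405 without oeNC replicate 1.

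**Figure D1:**
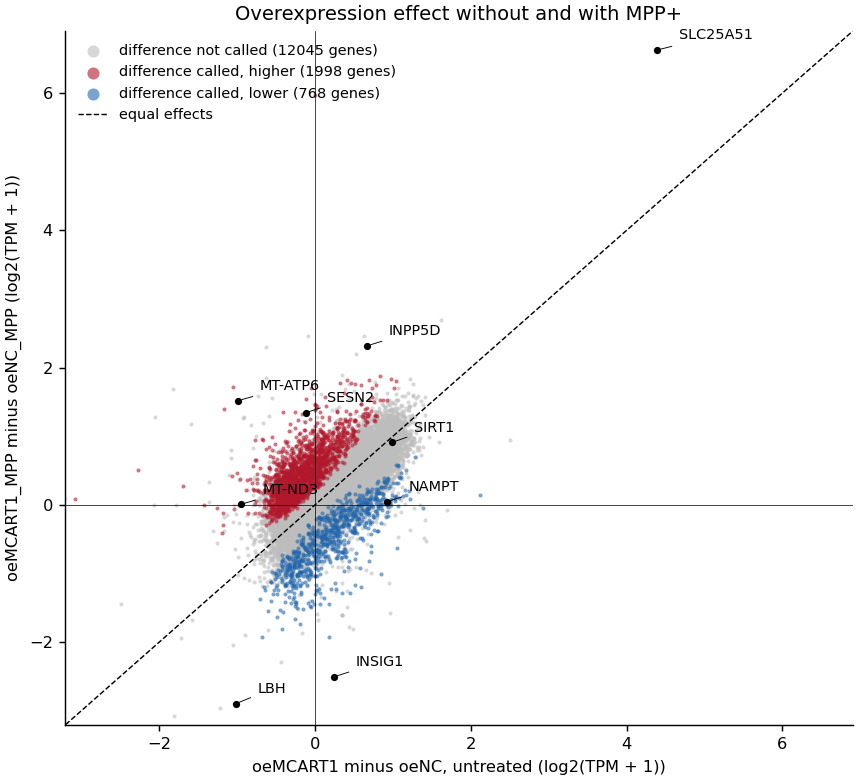
Each point is 1 of the 14811 genes tested, placed by its overexpression effect without MPP+ (x) and with MPP+ (y), both as differences of mean log2(TPM + 1), and points on the dashed line have equal effects. The 1998 genes called higher lie above the line and the 768 called lower lie below it, with SLC25A51 far to the upper right and INSIG1 and LBH at the bottom.

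Both effects ran with transcript GC content, and their difference did so less. Across 14216 genes with a GC value, which share libraries and are not independent, Spearman's rho with GC was -0.80 for the untreated effect, -0.58 for the treated effect and 0.23 for the difference. Genes called higher had a median transcript GC of 55.6%, those called lower 50.1% and all genes tested 48.8%. After the GC trend of every library was taken out, the calls were 1995 higher (14.0%) and 968 lower (6.81%), together 20.8% of 14216, and with GC and length trends taken out 2033 higher and 997 lower. With shScramble as the control in both tables, an alternative added after the data were seen, 776 genes were called higher (5.24%) and 347 lower (2.34%), together 7.58%.

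The 13 mRNAs of the mitochondrial DNA, which encode parts of the respiratory chain and of the ATP synthase, all had a called higher difference, where 13.5% of all genes did. Their median difference was 1.33. In untreated cells every one of the 13 fell on overexpression (median -0.95). With MPP+, 9 rose, MT-ND2 fell, and MT-ND1, MT-ND3 and MT-ND6 were not called (median of the 13, 0.47). Their summed share of TPM was 9.84, 8.59 and 7.66% in oeNC and 4.04, 4.26 and 5.01% in oeMCART1. It was 0.411, 0.395 and 0.456% in oeNC_MPP and 0.772, 0.657 and 0.743% in oeMCART1_MPP. Overexpressing libraries thus lay below all their controls without MPP+ and above all of them with it, and all 6 treated libraries lay far below the untreated ones. The ratio of the mean shares was 0.510 without and 1.72 with MPP+ (2-sided exact permutation p = 0.1 in each table). In shScramble the share was 4.90% without and 0.285% with MPP+, so the oeNC level before treatment was also the higher of the 2 untreated controls. Against shScramble 11 of the 13 were still called higher, where 5.24% of all genes were, with a median of 0.91. The median lay between 1.19 and 1.41 with other scalings and was 1.37 with the GC trend removed. All 13 were called higher when any 1 library was left out, and 12 with quantile normalization.

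**Figure D2:**
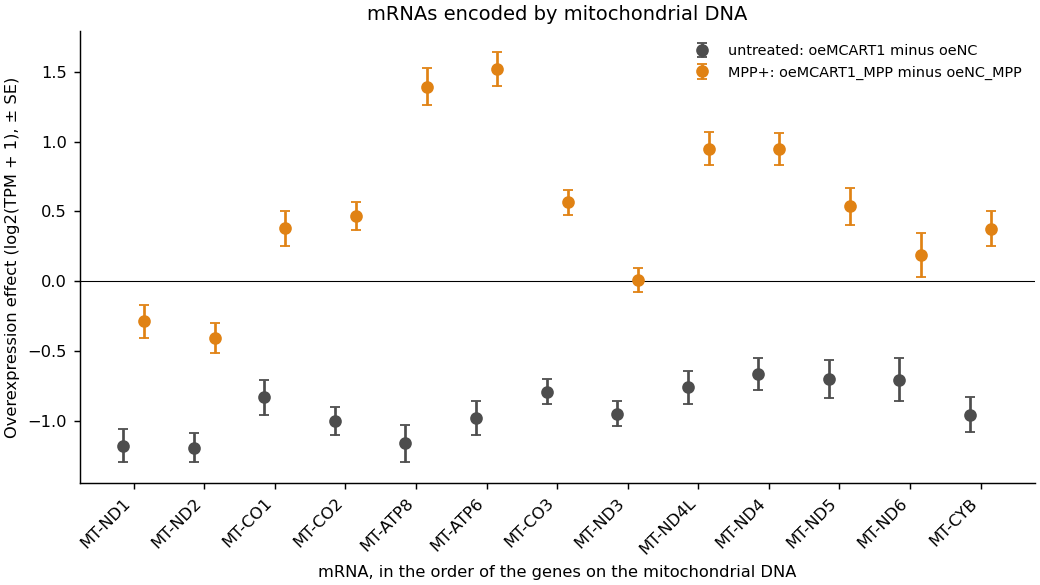
Overexpression effect (difference of mean log2(TPM + 1), bars are the SE of the limma fit) for the 13 mitochondrial mRNAs in the order of their genes on the mitochondrial DNA, without MPP+ in grey and with MPP+ in orange. All grey points lie below 0, between -1.19 and -0.66, while the orange points run from -0.41 for MT-ND2 to 1.52 for MT-ATP6.

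The differences varied among the 13 mRNAs. MT-ATP8 and MT-ATP6, subunits of the ATP synthase, had the largest differences (2.55 ± 0.19 and 2.50 ± 0.17, adjusted p = 3.91e-05 and 3.12e-05). MT-ND4L and MT-ND4, subunits of complex I, followed with 1.71 ± 0.17 and 1.61 ± 0.16. MT-ND2 had the smallest, 0.79 ± 0.15. The members of each pair lie on a shared mRNA and their reading frames overlap, and both members of a pair moved by about the same amount. The overlaps are shown because reads from them cannot be given to 1 gene; they were read from GENCODE transcripts (GRCh38, plus strand, mitochondrial chromosome).
MT-ATP8 and MT-ATP6, chrM:8527-8572, 46 bases: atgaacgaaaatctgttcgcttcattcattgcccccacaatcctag
MT-ND4L and MT-ND4, chrM:10760-10766, 7 bases: atgctaa
The MT-ATP8 and MT-ATP6 overlap is 46 of the 207 bases of MT-ATP8 and the 681 bases of MT-ATP6. MT-ATP6 was at 4584, 3821 and 3285 TPM in oeNC and 1764, 1902 and 2218 TPM in oeMCART1. After MPP+ it stood at 177.1, 151.4 and 187.8 TPM in oeNC_MPP and 499.9, 449.2 and 535.0 TPM in oeMCART1_MPP. The groups did not overlap in either table and their order turned round. MTATP6P1, a nuclear copy of that gene on chromosome 1, showed a difference of 2.77 ± 0.22, but 671 of its 681 bases (98.5%) are identical to MT-ATP6. The 2 genes could not be told apart in these values.

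The nuclear genes of complex I, the target of MPP+, had 15 of 37 tested subunits called higher in the difference and 1 lower, with a median of 0.22 against 0.06 for all genes. That is 40.5% of the subunits higher, where 13.5% of all genes were. In untreated cells 11 subunits rose and 12 fell on overexpression (29.7 and 32.4%, against 37.8 and 17.5% of all genes). With MPP+ 18 rose and 1 fell, and the 48.6% that rose were near the 45.5% of all genes, with a median effect of 0.20 against 0.26. NDUFB2, an accessory subunit, was at 466.2, 420.4 and 470.8 TPM in oeNC and 409.8, 421.8 and 402.1 TPM in oeMCART1. In treated libraries it was at 244.3, 274.2 and 304.1 TPM in oeNC_MPP and 441.4, 411.1 and 424.1 TPM in oeMCART1_MPP, so the treated groups did not overlap (difference 0.77 ± 0.10, adjusted p = 0.000617). NDUFC2 (0.66 ± 0.10), NDUFC1 (0.66 ± 0.08) and NDUFB9 (0.46 ± 0.06), also accessory subunits of the membrane arm, went the same way. NDUFS1, which carries iron-sulphur clusters of the matrix arm, was the member called lower, at -0.59, a call lost when any of 8 libraries was left out. With median-of-ratios scaling 7 subunits were called higher and 2 lower, and with quantile normalization 10 and 2. With the GC trend removed 16 were higher and 1 lower, and with shScramble as the control 15 and 1 (median 0.24). Of all genes, 8.31, 9.37, 14.0 and 5.24% were called higher in these settings, in that order. Of 17 tested assembly factors of complex I, NDUFAF8 (0.71 ± 0.10) and FOXRED1 (0.41 ± 0.09) were higher, and COA1 was lower (-0.40 ± 0.07), shares near those of all genes. The FOXRED1 call was lost with median-of-ratios scaling (adjusted p = 0.0639), 4 factors were lower without oeNC replicate 2, and with shScramble as the control 1 was higher and none lower.

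Genes of NAD synthesis and use were split. Of 23 tested, SIRT7, SARM1 and NADSYN1 were called higher and NAMPT, NMRK1, NUDT12 and NNT lower (median -0.05). The 13.04% higher were near the 13.5% of all genes, and the 17.4% lower stood against 5.19%. The count of 4 fell to 2 when any of 8 libraries was left out: each of oeMCART1, oeMCART1_MPP replicate 3, oeNC replicates 1 and 3, and oeNC_MPP replicates 1 and 2. With shScramble as the control 1 was called higher and 1 lower, where 5.24 and 2.34% of all genes were. NAMPT, which starts the salvage of nicotinamide to NAD+, was at 14.50, 21.12 and 17.13 TPM in oeNC and 32.97, 34.43 and 34.53 TPM in oeMCART1. Its treated values were 23.04, 23.76 and 19.81 TPM in oeNC_MPP and 24.70, 23.36 and 20.95 TPM in oeMCART1_MPP. Overexpressing and control libraries did not overlap without MPP+ and overlapped with it, and the difference was -0.88 ± 0.17 (adjusted p = 0.00395). NMRK1, a nicotinamide riboside kinase, had the same shape, with an effect of 0.83 without and 0.02 with MPP+. SIRT7, an NAD+-dependent deacylase of the nucleolus, fell by 0.46 on overexpression in untreated cells and rose by 0.40 with MPP+. SARM1, an NAD+-cleaving enzyme of axon degeneration, fell by 0.26 and rose by 0.43. NNT, the transhydrogenase that links NADH and NADPH in the matrix, had a difference of -0.55 ± 0.17 (adjusted p = 0.0454), and the call was lost when any of 10 libraries was left out. SIRT1, another NAD+-dependent deacylase, rose by 0.99 and 0.91 in the 2 conditions, and its difference of -0.08 ± 0.24 was not called (adjusted p = 0.861).

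Genes of cholesterol synthesis and uptake had the lowest median difference of the 15 lists described, -0.44, with 11 of 22 tested members called lower and 1 higher, where 5.19% of all genes were lower. INSIG1, the sterol-dependent retention protein of the SREBP pathway (ENSG00000186480, chr7:155297776-155310235), had the largest negative difference of all genes named here. It was at 43.43, 52.88 and 51.61 TPM in oeNC and 59.48, 57.64 and 58.40 TPM in oeMCART1. With MPP+ it was at 54.23, 43.47 and 31.83 TPM in oeNC_MPP and 7.00, 6.40 and 6.49 TPM in oeMCART1_MPP. The last group stood alone below the other 3, 6.51-fold below its control by the means (difference -2.75 ± 0.21, adjusted p = 3.91e-05). The values of oeNC_MPP were themselves spread.

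The other members differed in where the lower value came from. FDFT1, the squalene synthase, was at 135.9, 140.2 and 144.4 TPM in oeNC and 132.4, 140.2 and 141.1 TPM in oeMCART1. With MPP+ it was at 98.31, 90.66 and 97.77 TPM in oeNC_MPP and 60.84, 58.84 and 61.36 TPM in oeMCART1_MPP. Only the treated groups did not overlap: FDFT1 fell with MPP+ (-0.65) and its effect without it was -0.02 and not called (difference -0.63 ± 0.07, adjusted p = 0.000349). SREBF2, the transcription factor of the pathway, had an effect of -0.88 with MPP+ and of -0.20, not called, without it. DHCR7 and MVD fell in both conditions and more with MPP+. IDI1, MSMO1, HMGCS1 and SQLE instead rose on overexpression in untreated cells, by 0.81, 0.92, 1.05 and 0.59, and had no called effect with MPP+. Against shScramble 8 members were called lower and none higher, where 2.34% of all genes were lower and 5.24% higher. INSIG1 was at -1.61 there. Of the 22 members, 9 rose and 8 fell on overexpression in untreated cells (40.9 and 36.4%, against 37.8 and 17.5% of all genes). With MPP+ 3 rose and 10 fell (13.6 and 45.5%, against 45.5 and 12.9%).

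SREBP factors bind sterol regulatory elements. The letters TCACNCCAC, on either strand, were found in 1 of the 16 RefSeq promoter windows of the list, that of SREBF2, against 1.15% of 27305 promoters. Its window (GRCh38.p14, chr22:41832855-41833154, plus strand) is shown with the match, at positions -133 to -125 from the start, in capitals.
SREBF2: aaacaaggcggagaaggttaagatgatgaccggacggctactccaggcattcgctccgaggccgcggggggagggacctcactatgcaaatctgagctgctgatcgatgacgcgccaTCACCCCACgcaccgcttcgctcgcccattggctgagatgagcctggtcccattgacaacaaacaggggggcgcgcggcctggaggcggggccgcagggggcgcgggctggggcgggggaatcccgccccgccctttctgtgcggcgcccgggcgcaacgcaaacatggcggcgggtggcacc

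Targets of ATF4 and the integrated stress response had 15 of 40 tested members called higher in the difference and 2 lower, with a median of 0.32. The 37.5% higher stood against 13.5% of all genes and the 5% lower against 5.19%, and 4 were lower without oeNC_MPP replicate 3. On overexpression 14 rose and 11 fell in untreated cells (median 0.04), and the 35% that rose were near the 37.8% of all genes. With MPP+ 26 rose and 8 fell (65% and 20%, against 45.5 and 12.9% of all genes, median 0.52). The members called higher included 6 plasma membrane amino acid carriers or their partner: SLC7A5, SLC3A2, SLC1A5, SLC1A4, SLC7A1 and SLC6A9. SLC3A2, the heavy chain that brings SLC7A5 to the membrane, was at 168.2, 154.6 and 176.7 TPM in oeNC and 137.6, 144.1 and 145.5 TPM in oeMCART1. In treated libraries it was at 262.8, 248.8 and 273.3 TPM in oeNC_MPP and 351.3, 375.5 and 402.2 TPM in oeMCART1_MPP. Groups did not overlap in either table, and overexpression lowered the gene without MPP+ and raised it with MPP+ (difference 0.74 ± 0.09, adjusted p = 0.000418). SLC7A5, the leucine carrier, turned in the same way, with a difference of 0.90 ± 0.09 (adjusted p = 0.000126).

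Other members called higher were enzymes and regulators. PSPH, the last enzyme of serine synthesis, had a difference of 0.76 ± 0.11. TRIB3, a pseudokinase that restrains this response, was at 17.1 TPM in oeNC, 13.1 TPM in oeMCART1, 167.7 TPM in oeNC_MPP and 228.4 TPM in oeMCART1_MPP by the means (difference 0.81 ± 0.14). GDF15, a secreted stress cytokine, was at 0.70, 0.36 and 0.61 TPM in oeNC and 1.61, 1.16 and 1.52 TPM in oeMCART1. Its treated values were 21.75, 19.43 and 24.02 TPM in oeNC_MPP and 52.47, 52.87 and 64.19 TPM in oeMCART1_MPP. Its ratio of overexpressed to control means was nearly the same in both conditions, 2.57 and 2.60. On the log2(TPM + 1) scale, which understates changes of low genes such as GDF15 without MPP+, the difference was 0.69 ± 0.18 (adjusted p = 0.0184). With a pseudocount of 0.1 it was 0.13 (adjusted p = 0.811), and against shScramble 0.00. The call was also lost without oeMCART1_MPP replicate 3 or without oeNC_MPP replicate 2.

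The 2 members called lower were DDIT4 (-1.02 ± 0.14), an inhibitor of mTORC1, and DDIT3 (-0.50 ± 0.12), the factor CHOP. ATF4 mRNA itself was at 685.8, 699.7 and 694.3 TPM in oeNC and 663.4, 644.9 and 657.8 TPM in oeMCART1. With MPP+ it was at 998.6, 925.0 and 905.3 TPM in oeNC_MPP and 799.2, 811.2 and 779.1 TPM in oeMCART1_MPP. ATF4 was lower on overexpression with MPP+ (-0.24, adjusted p = 0.00046), and its difference of -0.16 ± 0.06 was not called (adjusted p = 0.0824), while with median-of-ratios scaling it was -0.25 and called (adjusted p = 0.049). With shScramble as the control, 9 of the 40 targets were called higher and 1 lower, where 5.24 and 2.34% of all genes were.

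The C/EBP-ATF element, written here as TGATGNAA and searched on both strands, was found in 6 of 32 promoter windows of this list (18.8%), against 3.67% of 27305 promoters and 1.56% of those of tested genes. In the cytosolic aminoacyl-tRNA synthetases, a list with no gene in common with this one, it was found in 6 of 16 windows (37.5%), and 3 of 20 tested members of that list were called higher in the difference, near the share of all genes. The 6 genes of the ATF4 list were ATF3, ASNS, SLC3A2, SLC7A1, CHAC1 and FGF21. Not called in the difference were ATF3 (-0.51), ASNS (-0.21), CHAC1 (0.50) and FGF21 (0.05), whose matches lie upstream of the start. Only SLC3A2 (0.74) and SLC7A1 (0.66) were called. Those 2 windows (GRCh38.p14, chr11:62881449-62881748, plus strand, and chr13:29595639-29595938, minus strand) are shown with the match in capitals. In SLC3A2 it lies on the reverse strand from 37 to 44 and in SLC7A1 on the forward strand from 7 to 14, counted from the start.
SLC3A2: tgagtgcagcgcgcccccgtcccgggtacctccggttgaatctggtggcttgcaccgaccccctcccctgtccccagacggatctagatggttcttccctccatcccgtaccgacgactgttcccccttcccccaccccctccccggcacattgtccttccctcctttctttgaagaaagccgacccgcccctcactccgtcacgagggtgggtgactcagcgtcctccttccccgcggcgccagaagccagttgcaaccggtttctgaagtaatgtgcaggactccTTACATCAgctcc
SLC7A1: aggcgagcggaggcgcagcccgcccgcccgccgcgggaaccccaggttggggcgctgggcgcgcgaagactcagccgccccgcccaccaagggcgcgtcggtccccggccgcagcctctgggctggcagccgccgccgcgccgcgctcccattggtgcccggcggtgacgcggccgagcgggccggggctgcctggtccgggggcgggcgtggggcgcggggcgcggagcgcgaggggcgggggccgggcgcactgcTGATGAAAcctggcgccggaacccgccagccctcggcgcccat

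Targets of the tumour suppressor p53 had 9 of 24 tested members called higher (37.5%, against 13.5% of all genes) and none lower, with a median difference of 0.47. On overexpression 17 rose and 1 fell in untreated cells (70.8% rose, against 37.8% of all genes, median 0.45). With MPP+ 19 rose and none fell (79.2% rose, against 45.5%, median 1.00). TP53I3, a quinone oxidoreductase, was at 11.55, 9.98 and 10.68 TPM in oeNC and 10.38, 9.01 and 10.20 TPM in oeMCART1. After MPP+ it stood at 5.98, 6.64 and 9.52 TPM in oeNC_MPP and 18.93, 25.05 and 25.50 TPM in oeMCART1_MPP. Only the treated groups were apart (difference 1.65 ± 0.21, adjusted p = 0.000588). SESN2, a leucine sensor that is also a target of ATF4 and counted in both lists, was at 31.56, 25.65 and 29.63 TPM in oeNC and 26.22, 26.51 and 26.78 TPM in oeMCART1. In treated libraries it was at 66.28, 77.27 and 96.50 TPM in oeNC_MPP and 200.6, 201.2 and 205.2 TPM in oeMCART1_MPP. The 3 treated overexpressing libraries were more than 2 times the highest of the rest, and the difference was 1.46 ± 0.16 (adjusted p = 0.000229).

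The other 7 members called higher had smaller differences. BAX, which permeabilises the outer mitochondrial membrane, had a difference of 0.97 ± 0.16, and TNFRSF10B, a TRAIL receptor, 0.80 ± 0.10. CDKN1A, the cell cycle inhibitor p21, had one of 0.74 ± 0.18 and rose on overexpression by 0.36 without and 1.09 with MPP+. BTG2 (0.67), TP53INP1 (0.53), FDXR (0.50) and AEN (0.30) were the remaining ones. Of 13 tested BCL2 family genes, BAX, the anti-apoptotic BCL2L1 (0.49 ± 0.11) and BAK1 (0.39 ± 0.13) were called higher (23.1%, against 13.5% of all genes). The BAK1 call was lost when any of 9 libraries was left out. Without oeNC replicate 2 the count of BCL2 family genes was 5. With the GC trend removed 15 p53 targets were called higher and none lower, with median-of-ratios scaling 5 p53 targets were higher and 2 lower, and with shScramble as the control 8 were called higher and none lower. Of all genes, 14.0, 8.31 and 5.24% were called higher in these settings, in that order.

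**Figure D3:**
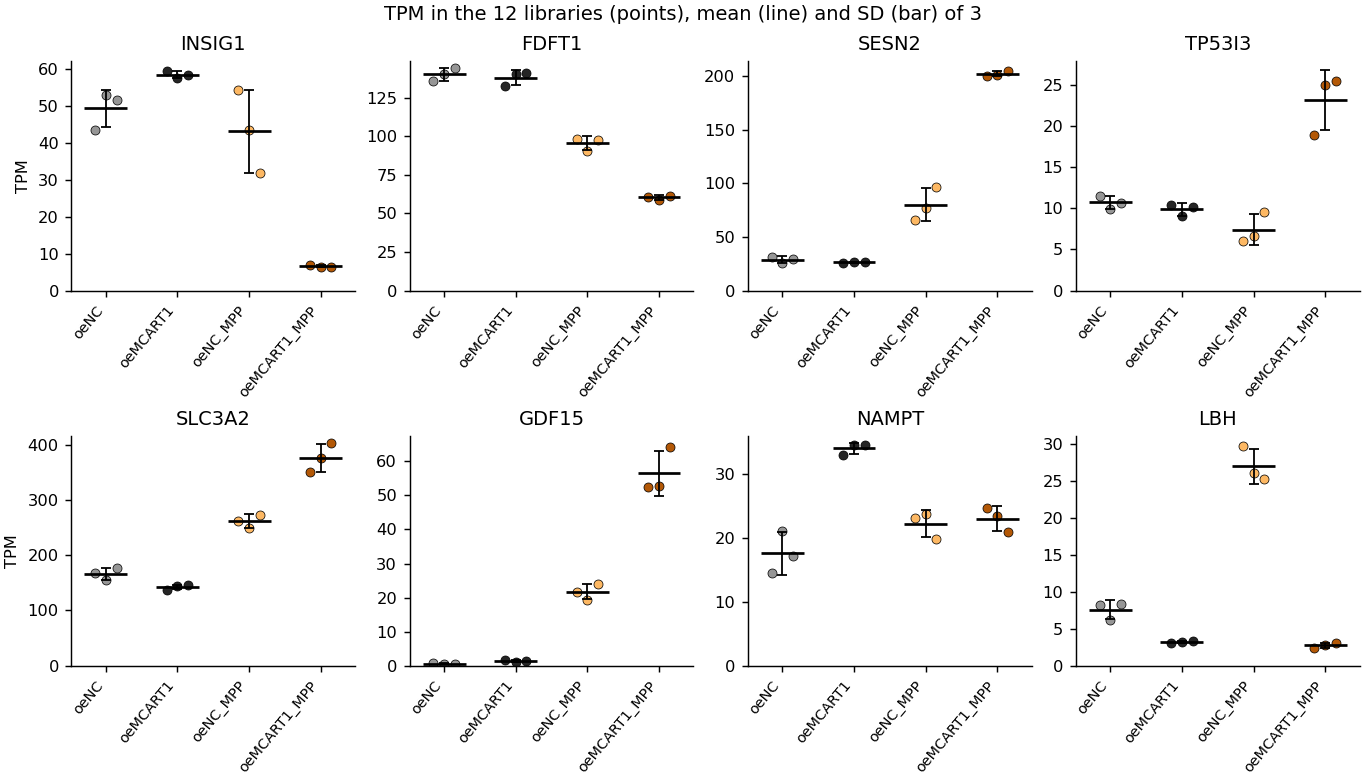
TPM of 8 genes in each of the 12 libraries (points), with the mean (line) and SD (bar) of the 3 libraries of each group, on linear axes from 0. In INSIG1, SESN2 and TP53I3 the oeMCART1_MPP libraries stand apart from the other 3 groups, in NAMPT the oeMCART1 libraries do, and in GDF15 both treated groups lie far above the untreated ones.

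Cytosolic ribosomal protein genes had 38 of 75 members called lower (50.7%, against 5.19% of all genes) and 1, RPL28, higher (median -0.23). In untreated cells 34 rose and 22 fell on overexpression (45.3 and 29.3%, against 37.8 and 17.5% of all genes). With MPP+ 5 rose and 47 fell (6.67 and 62.7%, against 45.5 and 12.9%). RPL3, of the large subunit, was at 2658, 2711 and 2810 TPM in oeNC and 3323, 3279 and 3078 TPM in oeMCART1. Its treated values were 5652, 5487 and 5262 TPM in oeNC_MPP and 3658, 3663 and 3698 TPM in oeMCART1_MPP. The order of the groups turned round, and the difference was -0.82 ± 0.06 (adjusted p = 3.12e-05). RPS25 (-0.91 ± 0.07), RPL23 (-0.74 ± 0.06) and RPS23 (-0.69 ± 0.05) turned in the same way. With median-of-ratios scaling 37 were called lower and none higher, with quantile normalization 31 lower and 9 higher, and with shScramble as the control 20 lower and 1 higher. Of all genes, 7.89, 7.60 and 2.34% were called lower in these settings, in that order.

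Genes of the unfolded protein response of the endoplasmic reticulum had 6 of 22 called higher (27.3%, against 13.5% of all genes) and none lower (median 0.24). XBP1, a transcription factor of this response, had a difference of 0.58 ± 0.07, and the chaperone-related CRELD2, MANF and HYOU1 had differences of 0.64, 0.51 and 0.45. With shScramble as the control 1 was called higher and 1 lower, where 5.24 and 2.34% of all genes were, with a median of -0.03. Of 14 tested replication-dependent histone genes, H3C10 and H2BC12 were called higher (0.62 and 0.59), a share of 14.3% that is near that of all genes. H3C10 was at most 2.65 TPM in any library, and its call was lost when any of 8 libraries was left out. The H2BC12 call was lost with the GC trend removed (adjusted p = 0.0603). MYB, at most 1.96 TPM in any library, was the 1 of 10 adrenergic neuroblastoma transcription factors that was called (-0.53 ± 0.17, adjusted p = 0.0471), and leaving out any of 10 libraries ended the call. That is 10% of the list called lower, against 5.19% of all genes.

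Immediate early genes, transcribed at once when cells meet mitogens or stress, had 8 of 20 called lower (40%, against 5.19% of all genes) and 3 higher (15%, near the 13.5% of all genes; median -0.12). The lower ones were CCN1, DUSP1, JUN, KLF6, MYC, IER3, NR4A1 and JUNB. MYC was at 130.7, 138.2 and 139.6 TPM in oeNC and 156.8, 146.6 and 151.6 TPM in oeMCART1. With MPP+ it was at 120.0, 106.3 and 87.19 TPM in oeNC_MPP and 71.95, 71.89 and 61.69 TPM in oeMCART1_MPP (difference -0.75 ± 0.14, adjusted p = 0.0036). Groups did not overlap in either table, but the untreated effect of 0.15 was not called (limma adjusted p = 0.208), while the treated effect of -0.59 was. EGR1, a zinc finger factor, went the other way: it fell by 0.75 on overexpression without MPP+ and rose by 0.66 with it. FOSB, a partner of JUN, was at 3.42 TPM in oeNC and 0.853 TPM in oeMCART1 by the means, and at 0.687 and 0.620 TPM with MPP+. Its difference of 1.20 ± 0.20 came from an effect of -1.25 without MPP+. The effect with MPP+ was -0.05 and not called, at levels that left little room for a fall. The count of 8 fell to between 2 and 6 whichever library was left out. With shScramble as the control none were called lower and 3 higher, where 2.34 and 5.24% of all genes were.

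Glycolysis and targets of hypoxia-inducible factor outside it were also mixed. Of 22 glycolytic genes, 5 were called higher (22.7%, against 13.5% of all genes) and 7 lower (31.8%, against 5.19%; median -0.10), with ENO1 at 0.42 ± 0.08 and TPI1 at 0.39 ± 0.09 among the higher. Both fell on overexpression in untreated cells and were not called with MPP+. LDHB (-0.62 ± 0.14), HK2 (-0.69 ± 0.18) and SLC2A3 (-1.64 ± 0.19), which encodes the glucose transporter GLUT3, were among the lower. SLC2A3 was at 5.99, 6.14 and 7.29 TPM in oeNC and 8.07, 7.12 and 7.28 TPM in oeMCART1. After MPP+ it stood at 18.91, 19.52 and 26.75 TPM in oeNC_MPP and 8.38, 6.72 and 6.70 TPM in oeMCART1_MPP. Only oeNC_MPP stood above the rest. Of 19 other targets of hypoxia-inducible factor, NDRG1 (-0.90 ± 0.16), MXI1 (-0.60 ± 0.15) and AK4 (-0.53 ± 0.15) were called lower and STC2 higher (0.38 ± 0.12). These are 15.8% lower and 5.26% higher, against 5.19 and 13.5% of all genes. Leaving out any of 10 libraries ended the STC2 call and any of 5 the AK4 call. Without oeNC replicate 2 the 3 called lower became 6. These lists turned with the control: with shScramble, 8 glycolytic genes were called higher and none lower, where 5.24 and 2.34% of all genes were. With that control the median of the other targets was 0.09, and SLC2A3 was at -0.05 and NDRG1 at 0.07. With median-of-ratios scaling no glycolytic gene was called higher and 7 were called lower, where 8.31 and 7.89% of all genes were.

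**Figure D4:**
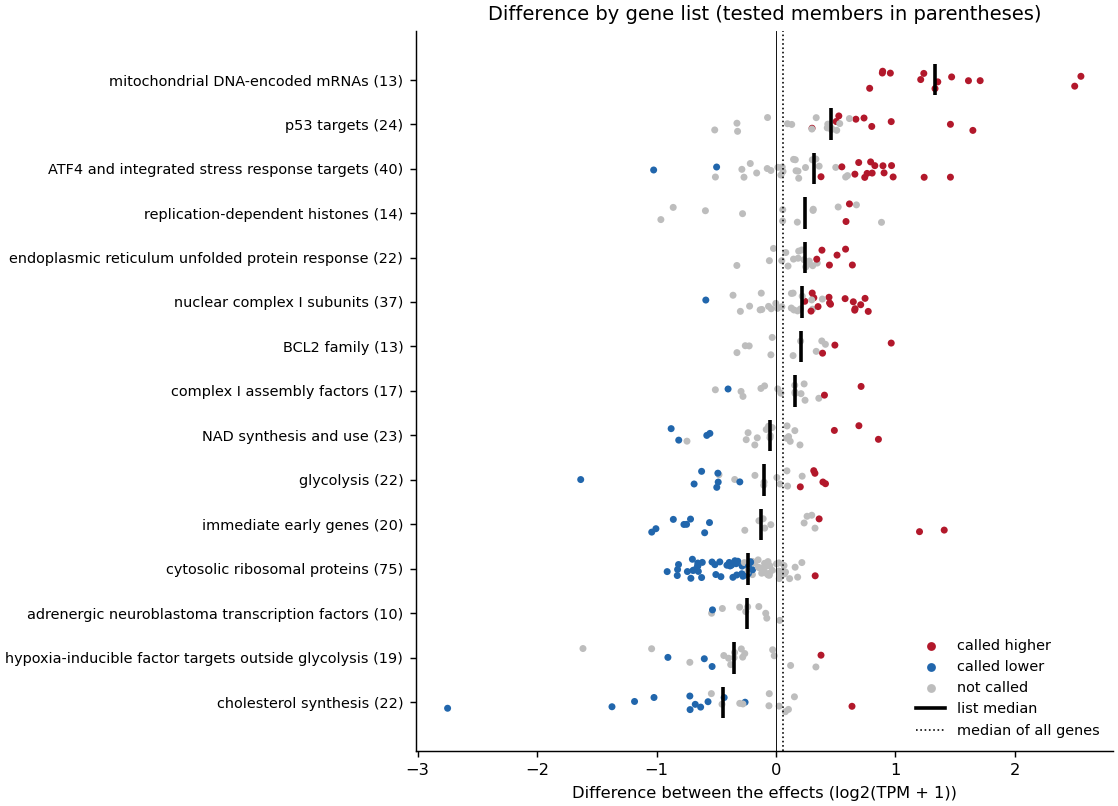
Difference between the overexpression effects with and without MPP+ (log2(TPM + 1)) for the tested members of 15 gene lists (number in parentheses), each point 1 gene, red and blue where called higher and lower, with black bars at list medians and a dotted line at the median of all genes, 0.06. Medians run from -0.44 for cholesterol synthesis to 1.33 for the mitochondrial mRNAs.

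Among the other genes with the largest differences, INPP5D, an inositol phosphatase best known from blood cells, was at 0.20, 0.33 and 0.68 TPM in oeNC and 1.14, 1.02 and 1.51 TPM in oeMCART1. In treated libraries it was at 1.03, 0.90 and 1.37 TPM in oeNC_MPP and 9.41, 8.67 and 10.28 TPM in oeMCART1_MPP (difference 1.65 ± 0.21, adjusted p = 0.000577). Only the last group was above 2 TPM. Markers of blood cells summed to 26.7 to 37.4 TPM in oeNC, 24.2 to 27.9 in oeMCART1, 20.9 to 28.1 in oeNC_MPP and 9.72 to 16.0 in oeMCART1_MPP, and 2 of 12 reached 1 TPM, HBA1 among them. PTPRC, found on nearly all white blood cells, was at 0.17 TPM at most, and the part of these markers in the result was not tested. AP5S1, a subunit of an adaptor complex of endosomes, turned from an effect of -0.55 to 0.99, and CPLANE2, a ciliary GTPase, had a difference of 1.47 ± 0.47 whose call was lost when any of 10 libraries was left out.

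On the lower side LBH, a transcriptional cofactor of development, was at 8.27, 6.12 and 8.40 TPM in oeNC and 3.12, 3.26 and 3.31 TPM in oeMCART1. Its treated values were 29.69, 26.05 and 25.25 TPM in oeNC_MPP and 2.40, 2.79 and 3.13 TPM in oeMCART1_MPP. Levels in overexpressing libraries were alike in both conditions, and those in controls were far apart (difference -1.88 ± 0.17, adjusted p = 9.52e-05). PROCR, the receptor of protein C, was at 32.54, 28.97 and 33.66 TPM in oeNC, 33.20, 31.02 and 29.70 TPM in oeMCART1, 51.32, 45.21 and 43.76 TPM in oeNC_MPP and 17.49, 16.29 and 15.82 TPM in oeMCART1_MPP. Untreated groups overlapped and treated ones did not (-1.43 ± 0.12, adjusted p = 4.59e-05). BHLHE40, a repressor of the circadian clock, went from 14.56, 13.20 and 18.53 TPM in oeNC_MPP to 6.27, 5.47 and 5.40 TPM in oeMCART1_MPP (difference -1.63 ± 0.19), and with shScramble as the control its difference was 0.48 and not called. DHRS2, a short-chain dehydrogenase, had a difference of -1.41 ± 0.14, and of -2.09 with that control.

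COL1A1, the chain of type I collagen, was at 12.26, 12.39 and 16.85 TPM in oeNC, 11.97, 10.58 and 13.15 TPM in oeMCART1, 11.55, 10.27 and 9.43 TPM in oeNC_MPP and 2.96, 2.68 and 1.78 TPM in oeMCART1_MPP (-1.54 ± 0.22, adjusted p = 0.000947). It is also a marker of mesenchymal cells. The summed level of 16 mesenchymal and Schwann-like markers was 51.7 to 65.9 TPM in oeNC, 73.2 to 78.3 in oeMCART1, 59.6 to 67.0 in oeNC_MPP and 80.8 to 90.4 in oeMCART1_MPP, with COL1A2 at 0.01 TPM at most. Its part in the result was not tested. USH1C, a scaffold of sensory hair cells (-1.40 ± 0.24), and TBX2-AS1, an antisense RNA (-1.44 ± 0.23), were further genes called lower. CALML4, a calmodulin-like protein, was at -1.46 ± 0.40, a call lost when any of 5 libraries was left out. Of the 73 genes named by rule and reported here, 69 were called in the difference, 59 of those kept the call when any 1 library was left out, and 43 were called with shScramble as the control. Median-of-ratios scaling ended the calls of CPLANE2, FOXRED1, STC2, SRF, ENO1, TPI1, BAK1 and GDF15, and removal of the GC trend those of STC2, MYB, H2BC12 and SRF. Calls of named genes weakened in other settings too, 8 with no filter and 6 with a pseudocount of 0.1. With all 24 libraries 5 weakened, and with quantile normalization 4. With shScramble 5 changed sign: BHLHE40, ATF5, NDRG1, AK4 and MYB. The 21 that kept the sign and not the call were SLC2A3, CPLANE2, CALML4, COA1, FOXRED1, SARM1, NMRK1, NNT, DHCR7, MXI1, H2BC12, H3C10, MANF, CRELD2, HYOU1, FOSB, MYC, SRF, LDHB, BAK1 and GDF15.

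The same contrast was taken in the 12 libraries of the knockdown arm: (shMCART1_MPP minus shScramble_MPP) minus (shMCART1 minus shScramble). The knockdown was partial. Mean SLC25A51 was 10.95 TPM in shScramble and 7.28 TPM (SD 2.01) in shMCART1 without MPP+, and 7.91 and 5.33 TPM with it. On the log2(TPM + 1) scale these effects were -0.56 and -0.49, against 4.39 and 6.63 on overexpression. Of 14395 genes tested in both, 126 were called there (0.875%). Among them were 77 of the 2729 genes called in the overexpression difference, which is 2.82% of those genes and 61.1% of the knockdown genes. Of all 14811 genes, 18.7% were called in the overexpression difference. For 74 of the 77 the 2 differences had opposite signs. Across all 14395 genes, which are not independent, Spearman's rho between the differences was -0.43, and -0.38 with GC trends removed, where 163 of 172 genes called in both had opposite signs.

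INSIG1 had the largest overexpression difference of the 77, -2.75, and a knockdown difference of 1.73 ± 0.13 (adjusted p = 0.000204). IDI1, of the same pathway, was at -1.18 and 1.24. The immediate early genes JUN (-0.86 and 1.62), CCN1 (-1.04 and 1.32), KLF6 (-0.77 and 1.44) and MYC (-0.75 and 0.75) were lower in the overexpression difference and higher in the knockdown difference. SESN2 (1.46 and -1.33), TRIB3 (0.81 and -1.32), GDF15 (0.69 and -1.31), NUPR1 (0.79 and -1.53), SLC7A5 (0.90 and -0.73), SLC3A2 (0.74 and -0.59) and CDKN1A (0.74 and -1.05) were the reverse. So was MAT2A, the enzyme that makes S-adenosylmethionine (1.45 and -1.27), chosen here after its values were seen. The 3 genes with the same sign in both were MT-CO2 (1.47 and 0.98), MT-CO3 (1.36 and 0.93) and MT-ND1 (0.89 and 1.03). They were the only mitochondrial mRNAs called in the knockdown difference. The median knockdown difference of the 13 was 0.83, against 0.09 for all genes, so as a list they were higher in both differences. Of the 23 of the 24 genes with the largest differences that could be tested in the knockdown libraries, 13 had the opposite sign there and 4 were called.

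**Figure D5:**
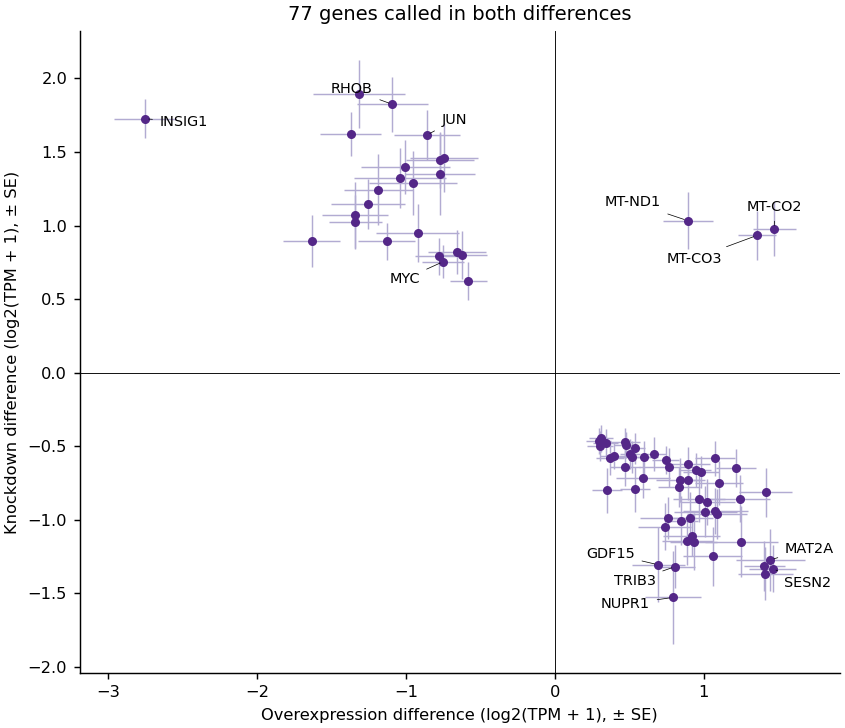
Overexpression difference (x) against knockdown difference (y), both in log2(TPM + 1) with the SE of the limma fits as bars, for the 77 genes called in both. In the plot 74 genes lie in the 2 quadrants of opposite sign, and MT-CO2, MT-CO3 and MT-ND1 lie at the upper right.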

How the data were processed

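RNA of 24 libraries was made into polyadenylated RNA libraries, per the labels' protocols, and the 12 overexpression libraries are described here. The authors deposited TPM per gene, with untreated and treated libraries in separate tables. No source used here gives the aligner, counter or annotation. Builds listed without a role in the submitters' processing notes are GRCh38, GRCm38 and mm10. The untreated table held 63266 entries and the treated one 36783, of which 25 and 42 without an identifier were left out. The tables shared 31524 identifiers, 85.8% of the smaller, and TPM outside these were 0.180 to 0.666% of a library. The tables may have been normalised separately. Each overexpression effect was therefore taken within 1 table, where a factor that a table puts on a gene cancels, and levels across tables were placed beside each other without a test. Whether counting used the strand is not given, so reads of overlapping and antisense genes cannot be separated.

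Values were taken as log2(TPM + 1) and fitted with limma 3.58.1 in R 4.3.3, with 1 mean per group, a trended empirical Bayes variance and Benjamini-Hochberg adjustment over the 14811 genes. Tables and plots were made with python 3.11.15, pandas 2.3.3, numpy 2.4.6, scipy 1.17.1 and matplotlib 3.10.9. Gene positions, GC content and length came from GENCODE 29 and promoter windows from RefSeq (GRCh38.p14). Simulated data for the overexpression difference held 14811 genes, with 50 changed per fold. The fit recovered 4% of changes of 1.25-fold, 26% of 1.5-fold, 50% of 2-fold and 94% of 4-fold, with 4 false calls. Folds were set on the log2(TPM + 1) scale, and noise was drawn independently for each gene, without library-wide shifts of scaling or GC. Far fewer genes changed than were called in the data, and the adjustment of p depends on that number. The recovered shares thus need not hold for the data, and the false calls give no error rate for the called genes.

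The comparison, the 35 gene lists and the rules were chosen with earlier results of these data known. Named were SLC25A51; the 12 higher and 12 lower genes with the largest called differences that had a symbol, a group mean of 5 TPM or more and groups that did not overlap in at least 1 table; up to 4 called members with the smallest p of the 5 lists on mitochondrial mRNAs, complex I and its assembly, NAD and ATF4 targets and of the 10 other lists with medians farthest from that of all genes; and SLC25A52, NNT, NAMPT, SIRT1, ATF4, DDIT3, GDF15, TRIB3 and TH. Of the 75 genes this rule names, 2 are not reported here. Lists are described by counts and medians, with no test. Alternatives were pseudocount, filter, scaling, mitochondrial genes left out, a replicate block, all 24 libraries, robust variance, library weights, GC trend removal and leaving out each library. Weights by table, GC and length trends together, shScramble as the control and scaling to nuclear genes were added after the data were seen.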

Additional observations from a re-analysis of the deposited data

Results flagged for a closer look

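The overexpression effect differed between untreated and MPP+-treated cells in 2766 genes, by limma's test of the difference itself (adjusted p under 0.05). All 69 named genes called in it are given here with the difference on the log2(TPM + 1) scale. Higher again means that overexpression raised the gene more, or lowered it less, with MPP+ than without. Higher with MPP+ by more than 0.9 were MTATP6P1 (2.77), MT-ATP8 (2.55), MT-ATP6 (2.50), SLC25A51 (2.23), MT-ND4L (1.71), TP53I3 (1.65), INPP5D (1.65), MT-ND4 (1.61), AP5S1 (1.54), MT-CO2 (1.47), CPLANE2 (1.47), SESN2 (1.46), EGR1 (1.41), MT-CO3 (1.36), FOSB (1.20), ATF5 (0.98) and BAX (0.97). Higher by less were SLC7A5 (0.90), SIRT7 (0.86), TRIB3 (0.81), TNFRSF10B (0.80), NDUFB2 (0.77), SLC3A2 (0.74), NDUFAF8 (0.71), SARM1 (0.70), GDF15 (0.69), NDUFC2 (0.66), NDUFC1 (0.66), CRELD2 (0.64), H3C10 (0.62), H2BC12 (0.59), XBP1 (0.58), MANF (0.51), BCL2L1 (0.49), NDUFB9 (0.46), HYOU1 (0.45), ENO1 (0.42), FOXRED1 (0.41), BAK1 (0.39), TPI1 (0.39), STC2 (0.38) and SRF (0.36). Lower by 0.90 or more were INSIG1 (-2.75), LBH (-1.88), SLC2A3 (-1.64), BHLHE40 (-1.63), COL1A1 (-1.54), CALML4 (-1.46), TBX2-AS1 (-1.44), PROCR (-1.43), DHRS2 (-1.41), USH1C (-1.40), RPS25 (-0.91) and NDRG1 (-0.90). Lower by less were NAMPT (-0.88), RPL3 (-0.82), NMRK1 (-0.81), MYC (-0.75), RPL23 (-0.74), RPS23 (-0.69), FDFT1 (-0.63), LDHB (-0.62), MXI1 (-0.60), NNT (-0.55), MYB (-0.53), AK4 (-0.53), DDIT3 (-0.50), DHCR7 (-0.43) and COA1 (-0.40). With shScramble as the control in both tables, 64 of the 69 kept the sign and 43 the call.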

How the results depend on the processing

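All values here are counts of called genes or log2 differences by limma. With library weights 5077 genes were called in the difference, 3369 higher and 1708 lower. The oeNC replicate 3 library had a weight of 5.99, the highest, and oeNC replicates 1 and 2 had the lowest, 0.365 and 0.252. The untreated control thus rested mainly on replicate 3 in that fit. With median-of-ratios scaling the counts were 1231 and 1169. With shScramble as the control they were 1123, 776 and 347; the untreated effect had 5368 called and 2745 higher, the treated effect 3737 and 1901 higher, and the median of the mitochondrial mRNAs was 0.91. The differences of BHLHE40 (0.48), ATF5 (-0.064), NDRG1 (0.067), AK4 (0.17) and MYB (0.15) changed sign with that control, and none of the 5 was called. The untreated effect had 5099 called and 464 lower with the GC trend removed, 4977 and 438 with GC and length trends removed, 4251 lower with median-of-ratios scaling and 4313 lower with quantile normalization. The treated effect had 1155 lower with the GC trend removed and 1172 with GC and length trends removed. It had 3920 higher and 3934 lower with median-of-ratios scaling, and 3984 and 3706 with quantile normalization. The cause of these shifts was not tested.

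When 1 library was left out, the difference had 2083 to 3299 calls (1548 to 2270 higher, 524 to 1149 lower), the untreated effect 6838 to 8891 (4680 to 6127 and 2051 to 2764) and the treated effect 7574 to 9040 (5909 to 6997 and 1644 to 2043). SLC25A51 ranged from 2.15 to 2.30 and the median of the mitochondrial mRNAs from 1.22 to 1.42. Deviations of same-numbered libraries correlated at -0.108 to 0.129, so the numbers were not taken to pair the samples. With the replicate block 2616 genes were called, 1896 higher and 720 lower. The 8 residual degrees of freedom and an unknown depth limit the precision of low genes.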

Other observations

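The rule for named genes takes genes with a symbol, so 2 without one are given here, picked for their values. ENSG00000289901, which GENCODE 29 does not hold, was listed at 0 in all 6 untreated libraries, at 0, 110.7 and 0 TPM in oeNC_MPP and at 400.8, 198.6 and 348.2 TPM in oeMCART1_MPP. Its value in 1 control library was far from those of the other 2, and its fitted difference was 5.98 (adjusted p = 0.0434). ENSG00000263585, an antisense RNA on chromosome 17, was at 13.97, 8.96 and 15.43 TPM in oeNC and at 1.24, 0.83 and 0 TPM in oeMCART1. It was at 0.87 TPM or less in all 6 treated libraries, with an adjusted p of 0.000785 for a difference of 3.17. Levels that low left little room for a fall with MPP+, so the difference reflects the fall in untreated cells.

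Mitochondrial ribosomal proteins, which translate the 13 mitochondrial mRNAs and are encoded in the nucleus, had 25 of 73 tested members called higher in the difference (34.2%, against 13.5% of all genes) and 3 lower, with a median of 0.18. With median-of-ratios scaling 7 were called higher and 5 lower, where 8.31 and 7.89% of all genes were. Proteasome subunits had 9 of 31 called higher (29.03%) and 1 lower (median 0.11), and with that scaling 3 higher and 4 lower. Mitosis genes had 5 of 28 called higher (17.9%, near the share of all genes) and 1 lower (median -0.03). Of the 28, 21 rose on overexpression without MPP+ (75%, against 37.8% of all genes) and 20 with it (71.4%, against 45.5%). Cytosolic aminoacyl-tRNA synthetases, also known targets of ATF4, had 3 of 20 called higher (15%, near the share of all genes) and 2 lower (median 0.01).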
